A study of Mus musculus with 14 samples.

Results

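Of the 53204 elements of 200 bp in the ATAC-seq count table, 4836 (9.09%) carried a peak in the double-sorted green cone list and in neither the rod nor the Nrl-/- list. They were chosen by overlap: an element had to share 1 bp or more with a window of 100 bp on either side of a double-sorted peak summit, and nothing with any such window of the rod or Nrl-/- lists. The double-sorted list held 36011 elements in all. These 4836 are called the green-only elements here, a name for the peak lists they are in and not for the cells that use them. Because the peaks of the double-sorted, Nrl-/- and rod libraries chose them, every difference between those libraries at these elements is a description. The rule did not use the peaks and counts of single-sorted green cones, the DNA sequence and position of the elements, or RNA-seq. Single-sorted peaks did help to place the elements of the table, 3495 of which were in the single-sorted list alone.

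ATAC-seq, which reads open chromatin by the cuts a transposase makes in it, was performed on photoreceptors sorted from dissociated retinas of C57BL/6 mice aged 8 weeks. Green cones were GFP-positive cells of the Opn1mw-GFP line, whose reporter stands under regulatory sequence of the medium-wavelength opsin gene, and were sorted either 2 times in a row (double-sorted, libraries 3 and 4) or a single time (single-sorted, libraries 1 and 2). The study's own sources differ on the mouse line of single-sorted library 1, which one of them gives as the Nrl-/- reporter line. The study's labels were followed here. At an element in the Nrl intron single-sorted library 1 had 43.0 CPM (scaled counts, explained below) and single-sorted library 2 had 31.0 CPM. The Nrl-/- libraries had 0 and 0 CPM there. The mouse line was not tested further. Results without single-sorted library 1 are given for the counts of elements called in single-sorted green cones and for some single elements. The shares in the single-sorted list, the orders of libraries and the splits by motif were not recomputed without it. The Nrl-/- photoreceptors (labelled blue cones, Nrl-eGFP;NrlKO) and rods (Nrl-eGFP) were GFP-positive through an Nrl promoter reporter and sorted a single time, with 2 ATAC-seq libraries and 3 RNA-seq libraries each. RNA of green cones was not analysed here, and nothing in the labels ties a library to a given animal, so that errors cover the spread between libraries only.

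In mice, cones make either the medium-wavelength opsin Opn1mw, the short-wavelength opsin Opn1sw, or both, and rods make rhodopsin. NRL is the leucine zipper factor that directs photoreceptor precursors to the rod fate, and without it the cells take on features of short-wavelength cones. Thyroid hormone receptor beta (Thrb), with retinoid X receptor gamma (Rxrg) as a partner, is required for Opn1mw expression and holds back Opn1sw in cones, and the orphan receptors Rora and Rorb also act in photoreceptors. Nuclear receptors of this kind read the half-site AGGTCA alone or as repeats with a set spacing, CRX and OTX2 (K50 homeodomain factors) read CTAATCC, and factors of the AP-1 type (bZIP) read TGANTCA.

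The sequences of 7 of these elements are shown because they carry the motifs on which the sequence results turn. A first set comes from the 10 green-only elements with the largest ratio of the single-sorted green mean to the larger of the Nrl-/- and rod means, among those where each green library was above each Nrl-/- and rod library. Of those 10, 5 held AGGTCA, 2 held TGANTCA, and none held both. The 6 of them with a match outside a UTR are at chr1:90834886-90835085 (intron of Col6a3), chr14:119402563-119402762 (intron of Hs6st3), chr8:22531661-22531860 (intron of Slc20a2, nearest start site Smim19), chr5:38818017-38818216 (intron of Clnk), chr4:128329274-128329473 (intron of Csmd2, nearest start site Hmgb4os) and chr10:3551286-3551485 (intron of Iyd). Added to these is chr15:62092634-62092833 (intron of Pvt1), one of the elements called in double-sorted green cones against Nrl-/- photoreceptors. All are the plus strand of GRCm38 from RefSeq, with matches to the half-site AGGTCA, to the bZIP motif and to the CRX-type motif, on either strand, in capitals.
Col6a3: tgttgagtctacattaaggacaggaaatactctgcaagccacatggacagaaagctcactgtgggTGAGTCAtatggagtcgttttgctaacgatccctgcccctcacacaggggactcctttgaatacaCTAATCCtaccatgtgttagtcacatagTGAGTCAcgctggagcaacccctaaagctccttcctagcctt
Hs6st3: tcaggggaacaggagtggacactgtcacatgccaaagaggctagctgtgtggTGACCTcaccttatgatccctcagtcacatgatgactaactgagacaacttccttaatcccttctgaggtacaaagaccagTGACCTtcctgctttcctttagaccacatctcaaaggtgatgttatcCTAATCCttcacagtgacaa
Smim19: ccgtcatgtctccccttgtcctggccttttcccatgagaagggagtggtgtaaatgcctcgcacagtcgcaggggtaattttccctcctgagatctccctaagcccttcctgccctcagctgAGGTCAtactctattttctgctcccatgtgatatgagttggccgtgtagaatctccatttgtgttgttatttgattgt
Clnk: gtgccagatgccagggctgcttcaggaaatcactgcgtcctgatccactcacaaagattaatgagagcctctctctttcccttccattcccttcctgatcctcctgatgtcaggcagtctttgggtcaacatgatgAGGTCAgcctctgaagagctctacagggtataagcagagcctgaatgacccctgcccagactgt
Hmgb4os: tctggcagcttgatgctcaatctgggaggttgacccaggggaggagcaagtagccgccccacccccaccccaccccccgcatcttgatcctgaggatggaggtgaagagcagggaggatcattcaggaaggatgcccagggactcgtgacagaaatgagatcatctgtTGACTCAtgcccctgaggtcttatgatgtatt
Iyd: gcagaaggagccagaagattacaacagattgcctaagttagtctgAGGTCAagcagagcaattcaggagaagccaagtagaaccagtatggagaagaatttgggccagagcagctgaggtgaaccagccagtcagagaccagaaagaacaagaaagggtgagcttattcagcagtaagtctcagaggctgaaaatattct
Pvt1: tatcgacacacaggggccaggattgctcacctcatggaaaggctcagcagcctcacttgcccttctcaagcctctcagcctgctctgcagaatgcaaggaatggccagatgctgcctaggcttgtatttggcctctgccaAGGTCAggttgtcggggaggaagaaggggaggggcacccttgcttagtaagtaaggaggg

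The promoter of Opn1mw was itself a green-only element, at chrX:74127295-74127494. The 171 bases of it before the start site at base 74127466 are shown because this is the gene that defines the sorted cells, with a CAGATG match (bHLH) in capitals.
Opn1mw: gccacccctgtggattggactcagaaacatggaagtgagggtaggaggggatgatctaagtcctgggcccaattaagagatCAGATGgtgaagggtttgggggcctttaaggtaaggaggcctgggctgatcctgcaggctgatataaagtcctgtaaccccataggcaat

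Across the 4836 elements the signal was highest in double-sorted green cones, lower in single-sorted green cones, lower again in Nrl-/- photoreceptors and lowest in rods. The median level, in CPM (a library's counts scaled by TMM to a common total), was 9.33 and 7.19 in the double-sorted libraries, 5.37 and 6.38 in the single-sorted libraries, 2.48 and 2.72 in the Nrl-/- libraries, and 0.625 and 0.753 in the rod libraries. No read was counted at 29.1% and 24.5% of them in the rod libraries, which allows a level of up to 1.25 and 1.13 CPM at each (3 fragments per library, taken as 6 counts since both mates were counted, and covering counting error only). The rod medians of the green-only elements lay below that limit.

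For comparison, the 6881 elements of the Nrl-/- list only had medians of 3.11 and 3.59 CPM in double-sorted green cones, 4.15 and 4.56 CPM in single-sorted green cones, 6.21 and 6.58 CPM in the Nrl-/- libraries, and 2.08 and 2.26 CPM in rods. The order of the green and Nrl-/- libraries was thus turned round between the classes, as the choice by peak lists requires of the double-sorted and Nrl-/- values.

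**Figure D1:**
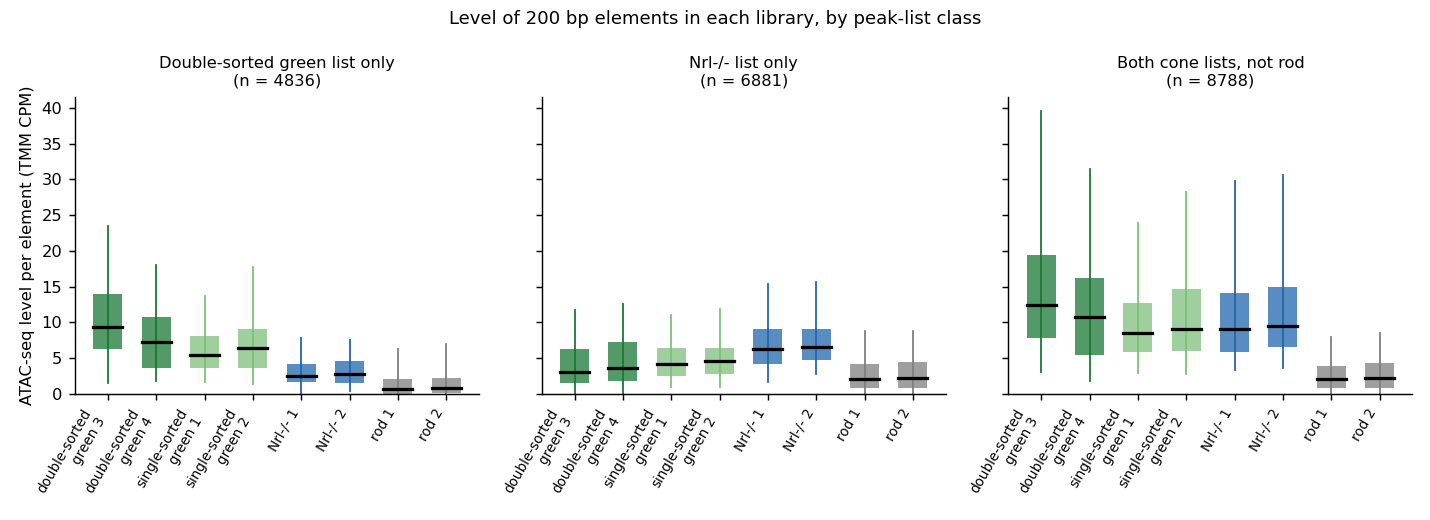
ATAC-seq level per 200 bp element (TMM CPM, y axis) in each of the 8 libraries for 3 peak-list classes: black lines are medians, boxes the middle 50% of elements and thin lines the 5th to 95th percentile. In the left panel the green-only elements have medians of 9.33 and 7.19 CPM in double-sorted green cones and 0.625 and 0.753 CPM in rods.

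The double-sorted libraries were the shallowest, with 1263753 and 1062403 counts in elements, against 3940065 and 2131701 in single-sorted green cones, 2402513 and 4318961 in Nrl-/- photoreceptors and 5170146 and 5770075 in rods. At the median green-only element this came to 12 and 8 counts in the double-sorted libraries. Over the green-only elements the log2 level of the 2 double-sorted libraries correlated across elements with r = 0.26, that of the 2 single-sorted libraries with 0.65, that of the Nrl-/- libraries with 0.61 and that of the rod libraries with 0.83 (elements are not independent replicates, and depth differs between the groups). Over all elements these values were 0.70, 0.90, 0.92 and 0.97. As their own peaks chose the green-only elements, the double-sorted value of 0.26 is not a plain measure of their agreement. At the median green-only element the single-sorted libraries held 22 and 14 counts. Single elements in the double-sorted libraries are thus known to a few counts only.

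Markers were read in every library. In the RNA libraries Nrl had 761.6, 880.6 and 548.4 normalised counts in Nrl-/- photoreceptors, against 13561.5, 19169.0 and 16836.0 in rods. An element in the Nrl intron, chr14:55521184-55521383, had 17.1 and 17.1 CPM in double-sorted green cones, 43.0 and 31.0 CPM in single-sorted green cones, 0 and 0 CPM in the Nrl-/- libraries, and 100.2 and 106.6 CPM in rods. The 47 elements nearest to rod genes summed to 521.6 and 817.5 CPM in double-sorted green cones, 1302.2 and 1102.2 CPM in single-sorted green cones, 883.4 and 832.2 CPM in the Nrl-/- libraries, and 2734.8 and 2844.0 CPM in rods. None of these 47 was a green-only element. The single-sorted libraries held more rod-gene signal than the double-sorted ones, and the part this plays in the results below was not tested. At the Opn1sw promoter, which is in both cone lists, double-sorted green cones had 9.33 and 51.2 CPM, single-sorted green cones 21.0 and 22.8 CPM, Nrl-/- photoreceptors 44.3 and 41.5 CPM, and rods 1.87 and 1.13 CPM, so the green-sorted cells were not without open chromatin at the other cone opsin.

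The first question is whether the green-only elements were also seen in green cones that had been sorted a single time, whose peaks did not enter the rule. Of the 4836, 2819 (58.3%, 95% Wilson interval 56.9% to 59.7%) overlapped a summit window of the single-sorted list and 2017 did not. The same share was 36.1% among the Nrl-/- only elements, 87.6% among the 8788 elements of both cone lists but not of rods, 90.4% over the whole double-sorted list and 80.2% over all elements. Green-only elements were therefore found again in single-sorted green cones less often than the double-sorted list as a whole, and more often than elements of the Nrl-/- list only. The green-only elements were chosen for a green cone peak and the Nrl-/- only elements for lacking one in the double-sorted list. The order of these classes is thus a description and tests nothing. Some elements were placed on a single-sorted summit, so the 58.3% is not independent of the single-sorted list.

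The share followed the strength of the double-sorted peak. When the green-only elements were split into 4 parts of about equal size by the −log10 q of that peak, 37.6%, 50.1%, 61.6% and 83.8% were in the single-sorted list, from the weakest part to the strongest. The lowest −log10 q among them was 8.98, their median 12.5 and the highest 267.5, against a median of 25.6 over the double-sorted list. Most green-only elements were thus peaks from the weaker end of that list.

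The single-sorted libraries were also set against the rest by their counts. Both single-sorted libraries were above every Nrl-/- and rod library at 2869 (59.3%) of the green-only elements, against 15.4% of all elements and 5.86% of the Nrl-/- only elements. All 4 green libraries were above every Nrl-/- and rod library at 2307 (47.7%), against 9.04% of all elements. The rule left the single-sorted libraries unused but chose elements absent from the Nrl-/- and rod lists, and the Nrl-/- only elements for the reverse, so these shares describe the classes and test nothing.

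Single-sorted green cones were then set against Nrl-/- photoreceptors in a fit over the whole table (edgeR, tested against a log2 fold change of 1, Benjamini-Hochberg adjusted p under 0.1). Of 3974 green-only elements that passed the filter on low counts, 505 (12.7%) were called higher in single-sorted green cones, against 1.83% of the 50605 elements tested, and 0 were called lower, against 1.03%. At an unadjusted p under 0.05 there were 1115 higher and 4 lower, and DESeq2 called 67 higher and 0 lower. The green-only elements made up 505 of the 927 higher calls over the whole table. Their median log2 fold change was 0.99, against −0.01 over all elements tested, 1.26 for those also in the single-sorted list, 0.41 for those not in it, and −0.55 for the Nrl-/- only elements, of which 394 were called lower. Without single-sorted library 2 the count of green-only elements called was 236, without Nrl-/- library 2 it was 330, and without single-sorted library 1 it was 381. Since absence from the Nrl-/- list was part of the rule, these counts describe the elements and do not test them.

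Against rods the same single-sorted libraries gave larger differences. Of 4184 green-only elements tested, 2733 (65.3%) were called higher in single-sorted green cones, against 21.4% of all elements tested, and 0 lower, against 2.93% (edgeR). At an unadjusted p under 0.05 in edgeR there were 2890 higher and 2 lower, and DESeq2 called 1840 higher and 0 lower. The median log2 fold change was 2.94 for the green-only elements, 2.11 for the elements of both cone lists and 0.73 for the Nrl-/- only elements. Without single-sorted library 1 the count was 1719. The green-only elements thus stood farther from rods than from Nrl-/- photoreceptors. Absence from both lists was part of the rule and the rod libraries were the deepest. This order is therefore a description and tests nothing.

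**Figure D2:**
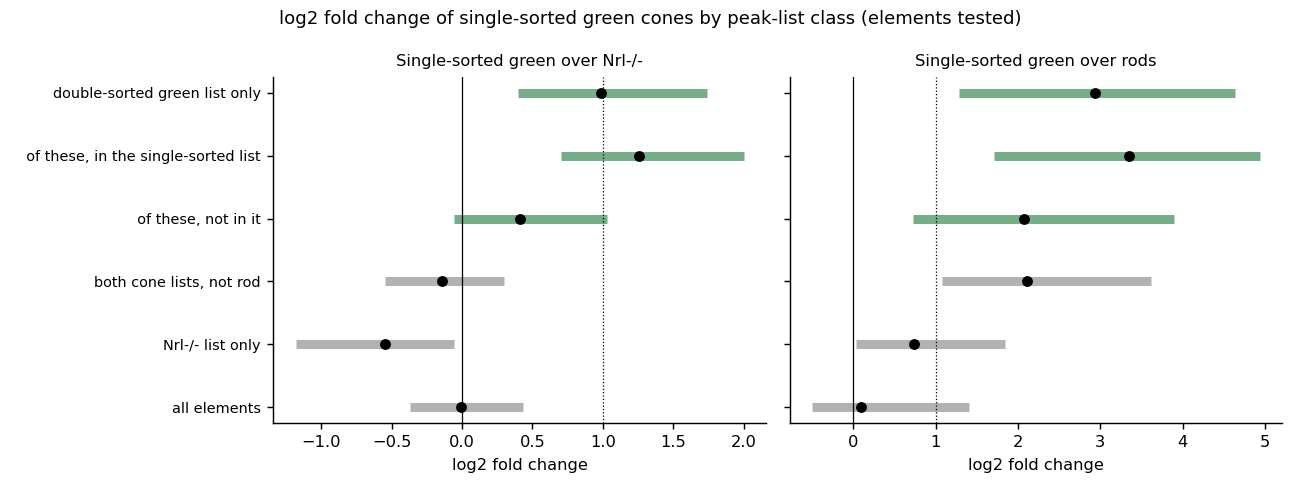
log2 fold change (x axis) of single-sorted green cones over Nrl-/- photoreceptors (left) and over rods (right) by peak-list class: points are medians and bars the middle 50% of the elements tested, and the dotted line is the log2 fold change of 1 the test was made against. Green-only elements have medians of 0.99 and 2.94.

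In the contrasts that the rule itself used, 2568 of 3899 green-only elements tested (65.9%) were called higher in double-sorted green cones against rods and 1 lower, where 18.7% and 6.43% of all elements were. Against Nrl-/- photoreceptors 12 of 3050 (0.393%) were called higher and 0 lower in double-sorted green cones, where 0.0374% and 0.00234% of all elements were (edgeR; at an unadjusted p under 0.05, 1289 higher and 2 lower, and DESeq2 called 21 higher and 0 lower). The count of 12 is unstable: leaving out 1 library gave 52 to 936, the highest without double-sorted library 4. For rods, the count was 1134 without double-sorted library 3, 1308 without rod library 1 and 1421 without rod library 2.

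The elements with the lowest adjusted p among these 12 show what a strong green-only element looks like. An element at chr3:28603730-28603929, in an intron of Tnik (a kinase of the Wnt pathway) with the start site of the glucose transporter Slc2a2 nearest, had 59.1 and 46.7 CPM in double-sorted green cones, 33.9 and 33.7 CPM in single-sorted green cones, 1.66 and 1.59 CPM in the Nrl-/- libraries, and 0.417 and 0 CPM in rods. All 4 green libraries were far above the rest. In single-sorted green cones it was higher than in Nrl-/- photoreceptors by a log2 fold change of 4.36 (SE 0.39, edgeR adjusted p = 1.12e-07) and than in rods by 7.25 (SE 0.51, edgeR adjusted p = 1.22e-09).

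The 10 elements with the lowest adjusted p were 2 promoters, 6 in introns and the rest between genes, and in all 10 each green library was above every other library. They were picked in a contrast that the rule used, so this order tests nothing. It held at 47.7% of the green-only elements and 9.04% of all elements. The promoter of Fzd10os, a non-coding RNA beside the Wnt receptor gene Fzd10, had 41.2 and 34.1 CPM in double-sorted green cones, 20 and 22.3 CPM in single-sorted green cones, 1.66 and 1.59 CPM in the Nrl-/- libraries, and 0.417 and 0 CPM in rods. The promoter of Il9r, the interleukin-9 receptor, had 25.7 and 27.8 CPM in double-sorted green cones, 13.2 and 12.8 CPM in single-sorted green cones, 0.828 and 0.454 CPM in the Nrl-/- libraries, and 0 and 0.377 CPM in rods. At both promoters the 2 libraries of each sort lay close together and the green and other libraries did not overlap.

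Other elements of this group lay in introns. In an intron of Nos1ap (an adaptor of neuronal nitric oxide synthase), with the start site of Spata46 nearest, the levels were 70.7 and 40.4 CPM in double-sorted green cones, 32.0 and 36.9 CPM in single-sorted green cones, 5.8 and 2.95 CPM in the Nrl-/- libraries, and 0.417 and 0 CPM in rods. In an intron of Rab11fip5 (a vesicle trafficking protein), nearest to Mir705, they were 47.4 and 65.6 CPM in double-sorted green cones, 28.6 and 40.1 CPM in single-sorted green cones, 7.04 and 3.63 CPM in the Nrl-/- libraries, and 0.833 and 0 CPM in rods. At Vgll4, a cofactor of TEAD factors, they were 38.1 and 49.4 CPM in double-sorted green cones, 23.9 and 41.0 CPM in single-sorted green cones, 3.31 and 2.72 CPM in the Nrl-/- libraries, and 0 and 0.377 CPM in rods. At each of these the lowest green library was above the highest other library, and the single-sorted mean was below the double-sorted mean.

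The Pvt1 intron element shown above had 29.5 and 28.7 CPM in double-sorted green cones, 13.4 and 17.3 CPM in single-sorted green cones, 0.828 and 1.13 CPM in the Nrl-/- libraries, and no counts in rods. Against the limit that a count of 0 allows in rods, that is at least 24.5-fold higher in double-sorted and at least 12.9-fold higher in single-sorted green cones. The remaining elements of the 10 were near Ercc4, Dlgap1 and 1700056E22Rik, with 16.2 to 55.2 CPM in the double-sorted libraries and 0 to 3.31 CPM in the Nrl-/- libraries.

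The 10 elements ranked by the single-sorted libraries, from which the sequences above were taken, were mostly weaker and had few or no counts outside green cones. The Col6a3 intron element had 15.5 and 3.59 CPM in double-sorted green cones, 3.91 and 20.5 CPM in single-sorted green cones, and no counts in either Nrl-/- or either rod library. The 2 libraries of each sort differed widely there. Against the limit that a count of 0 allows (mean over the libraries), single-sorted green cones were at least 6.35-fold higher than Nrl-/- photoreceptors and at least 10.3-fold higher than rods. The Hs6st3 intron element was also without counts in the Nrl-/- and rod libraries, with 12.4 and 5.39 CPM in double-sorted green cones and 6.35 and 16.9 CPM in single-sorted green cones.

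The Clnk element had 12.4 and 7.19 CPM in double-sorted green cones, 13.2 and 12.8 CPM in single-sorted green cones, 0 and 0 CPM in the Nrl-/- libraries, and 0.417 and 0 CPM in rods. The element 547.3 kb upstream of Cpeb2, a translation regulator, had 50.5 and 14.4 CPM in double-sorted green cones, 16.8 and 24.2 CPM in single-sorted green cones, 0.828 and 0 CPM in the Nrl-/- libraries, and 0 and 0.377 CPM in rods. The Iyd element had 15.5 and 19.8 CPM in double-sorted green cones, 12.7 and 12.3 CPM in single-sorted green cones, 0 and 0.454 CPM in the Nrl-/- libraries, and 0.208 and 0 CPM in rods. Iyd encodes iodotyrosine deiodinase, known from the thyroid, and its RNA was at 0 in all 6 RNA libraries of Nrl-/- photoreceptors and rods.

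None of the 10 elements in this ranking was a promoter, and 8 lay in introns. The RNA of Col6a3, Hs6st3, Iyd and Hmgb4os was at 0 in every RNA library, and that of Clnk and Dlgap1 was below the filter on low counts. With no RNA of green cones analysed here, the state of these genes in the cells where the elements were open is not known from these data.

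**Figure D3:**
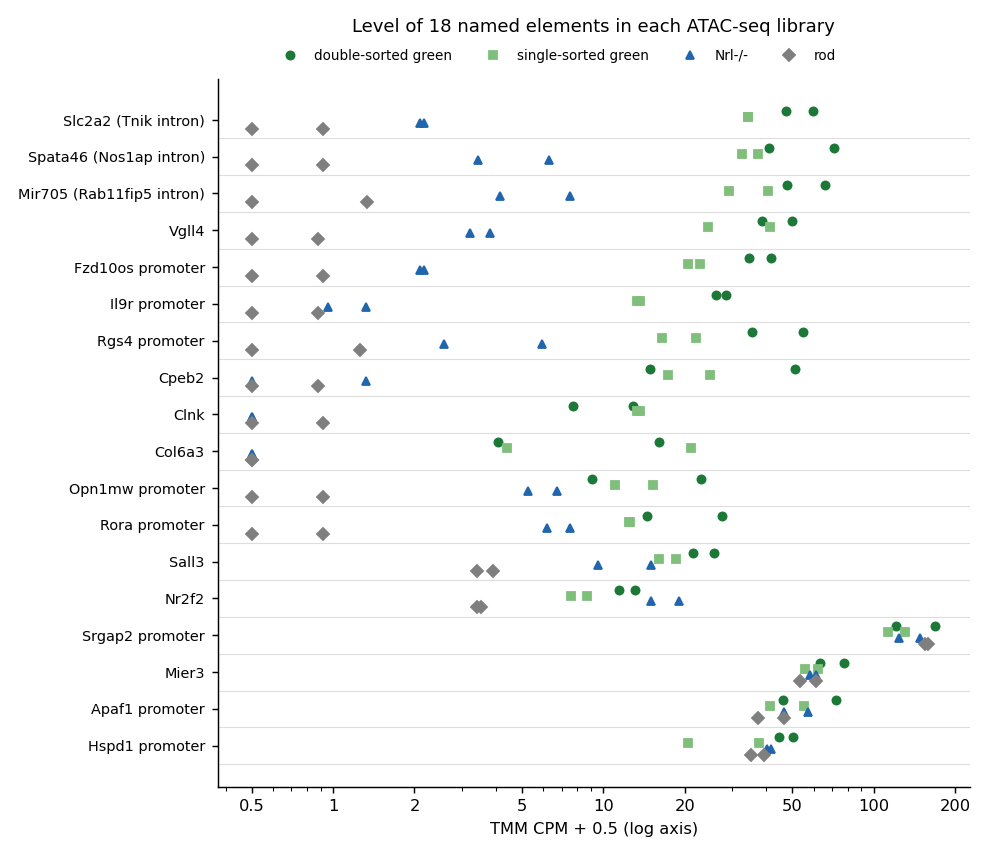
Level of 18 named elements (rows) in each ATAC-seq library, as TMM CPM + 0.5 on a log axis, with a marker per library and a colour and shape per group. From the top row to that of Sall3 every green library is above the Nrl-/- and rod libraries, at Nr2f2 the Nrl-/- libraries are highest, and the lowest 4 rows, near Srgap2, Mier3, Apaf1 and Hspd1, have all 8 libraries between 20.1 and 168.7 CPM.

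The strongest peaks by q value were of another kind. Of the 5 green-only elements with the largest −log10 q, 4 had about as much signal in rods as in green cones. The Srgap2 promoter, the strongest of all with a −log10 q of 267.5, had 168.7 and 120.4 CPM in double-sorted green cones, 112.1 and 129.5 CPM in single-sorted green cones, 148.2 and 123.0 CPM in the Nrl-/- libraries, and 154.5 and 158.0 CPM in rods. The log2 fold change of single-sorted green cones over rods was −0.35 (SE 0.10, edgeR adjusted p = 1). At Mier3 the levels were 77.0 and 62.9 CPM in double-sorted green cones, 55.4 and 61.6 CPM in single-sorted green cones, 60.9 and 57.4 CPM in the Nrl-/- libraries, and 52.7 and 60.4 CPM in rods. At Srgap2 the double-sorted libraries lay on both sides of the rod libraries and the single-sorted libraries below them, and at Mier3 the double-sorted libraries were just above and the single-sorted libraries overlapped the rod libraries.

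These elements entered the class by the position of a summit. A rod summit lay 247 bp from the centre of the Srgap2 element, 257 bp at Mier3, 203 bp at the promoter of Apaf1 (a core protein of the apoptosome) and 283 bp at that of Hspd1 (a mitochondrial chaperone), just beyond the reach of the windows. A Nrl-/- summit lay 204 to 275 bp away at these 4. Their GC share was 56.5% to 78.0%. Over all green-only elements, 254 (5.25%) had a rod summit and 370 (7.65%) a Nrl-/- summit within 300 bp of their centre, and the median distance was 34335 bp for rods and 13304.5 bp for Nrl-/- photoreceptors. Both rod libraries were over 20 CPM at 15 green-only elements (a level chosen after the values were seen), of which 10 were promoters and 80% had a rod summit within 300 bp. Elements of this kind were thus few, though they headed the list by peak strength. When whole peak intervals were compared in place of summit windows, 828 of the 4836 (17.1%) overlapped a rod or Nrl-/- peak.

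The limits of the rule can be seen at its edges. Inside it, elements near Matr3, A730013G03Rik and Cdh4 shared 4 bp with a double-sorted window, with 8.55 and 10.8 CPM in double-sorted green cones and 9.58 and 7.91 CPM in rods for Matr3. Outside it, elements near Mir212 and Ptbp3 were left out by 2 bp, and one near Bdp1 by 6 bp, of a Nrl-/- window. The Ptbp3 element had 4.66 and 5.39 CPM in double-sorted green cones, 2.48 and 1.82 CPM in the Nrl-/- libraries, and 3.96 and 0.941 CPM in rods. Of all green-only elements, 2652 (54.8%) lay whole within their own double-sorted window.

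Among cone genes, the Opn1mw promoter was a green-only element with its signal in cones and next to none in rods. It had 8.55 and 22.5 CPM in double-sorted green cones, 14.7 and 10.5 CPM in single-sorted green cones, 6.21 and 4.77 CPM in the Nrl-/- libraries, and 0.417 and 0 CPM in rods. Every green library was above the Nrl-/- libraries, and the log2 fold change of single-sorted green cones over Nrl-/- photoreceptors was 1.25 (SE 0.41, edgeR adjusted p = 0.981), which did not pass the test, while over rods it was 5.84 (SE 0.72, edgeR adjusted p = 4.95e-06). In RNA, Opn1mw was nonetheless high in Nrl-/- photoreceptors, with 47634.5, 58158.8 and 65761.1 normalised counts, against 580.2, 661.3 and 614.8 in rods (log2 fold change 6.55, SE 0.18, edgeR adjusted p = 8.93e-11).

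Of 92 elements nearest to 18 genes of cone phototransduction, 6 were green-only (6.52%, against 9.09% of all elements): 1 each at Opn1mw, Cnga3 (a cone channel subunit), Opn1sw and Slc24a2 (the cone exchanger), and 2 at Rgs9, which speeds the shutoff of transducin in rods and cones. One Rgs9 intron element had 11.7 and 10.8 CPM in double-sorted green cones, 3.66 and 6.38 CPM in single-sorted green cones, 4.14 and 4.09 CPM in the Nrl-/- libraries, and 3.54 and 3.39 CPM in rods. There the single-sorted and Nrl-/- libraries overlapped, and the double-sorted ones, which chose the element, stood above all others.

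Photoreceptor transcription factors held 11 green-only elements among 185, namely 4 at Rora, 2 at Thrb and 1 each at Rorb, Rxrg, Sall3, Samd7 and Six6. A Rora promoter element had 14.0 and 26.9 CPM in double-sorted green cones, 12 and 11.9 CPM in single-sorted green cones, 7.04 and 5.67 CPM in the Nrl-/- libraries, and 0.417 and 0 CPM in rods, without overlap between green and Nrl-/- libraries. An element 1.22 kb downstream of the start of Sall3, a zinc finger factor known from cone development, had 21.0 and 25.2 CPM in double-sorted green cones, 18.1 and 15.5 CPM in single-sorted green cones, 14.5 and 9.08 CPM in the Nrl-/- libraries, and 2.92 and 3.39 CPM in rods. The step from green cones to Nrl-/- photoreceptors was small at both (log2 fold changes of single-sorted green cones 0.92 and 0.57, SE 0.40 and 0.33, edgeR adjusted p = 1 for each) and the step to rods was large (5.74 and 2.45, edgeR adjusted p = 8.28e-06 and 0.000653).

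The genes that pattern the retina from dorsal to ventral held 5 of 60. The element 87.8 kb upstream of Nr2f2, an orphan receptor expressed in a dorsoventral pattern, had 10.9 and 12.6 CPM in double-sorted green cones, 7.08 and 8.21 CPM in single-sorted green cones, 18.6 and 14.5 CPM in the Nrl-/- libraries, and 2.92 and 3.01 CPM in rods. Its signal was highest in the Nrl-/- libraries, in whose list it was absent. The elements near Nr2f1 and Dio2, the deiodinase that makes active thyroid hormone, had 7.19 to 15.5 CPM in the double-sorted libraries and 4.97 to 8.28 CPM in the Nrl-/- libraries, and their single-sorted differences from Nrl-/- photoreceptors did not pass the test.

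Some lists of genes known from other settings had a larger share of green-only elements than the 9.09% of the whole table. Neural progenitor factors had 22 of 112 (19.6%), with 8 at Sox11 and 4 at Tcf4, and neuronal adhesion and guidance genes 26 of 136 (19.1%), with 5 at Dab1. These lists were chosen with earlier results of these data known and are given as counts. The element 475.4 kb upstream of Sox11, a progenitor HMG-box factor, had 34.2 and 8.08 CPM in double-sorted green cones, 11.5 and 14.6 CPM in single-sorted green cones, 1.66 and 3.63 CPM in the Nrl-/- libraries, and 0 and 0.188 CPM in rods. The promoter element of Pcdh9, a protocadherin, had 25.7 and 12.6 CPM in double-sorted green cones, 8.79 and 13.2 CPM in single-sorted green cones, 4.14 and 2.04 CPM in the Nrl-/- libraries, and 0.208 and 0.377 CPM in rods.

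Some green-only elements lay nearest to markers of other retinal cells. Of 12 elements nearest to vascular markers, 6 were green-only (at Cdh5, Erg, Kdr and Rgs5), and the 12 summed to 115.0 and 79.1 CPM in double-sorted green cones, 63.0 and 69.3 CPM in single-sorted green cones, 58.0 and 64.7 CPM in the Nrl-/- libraries, and 24.8 and 26.2 CPM in rods. An intron element of Erg, an ETS factor of endothelium, had 14.0 and 7.19 CPM in double-sorted green cones, 4.88 and 8.21 CPM in single-sorted green cones, 0.828 and 0.908 CPM in the Nrl-/- libraries, and no counts in rods. Of the 13 vascular markers 1 had a promoter element, at 7.77 and 1.8 CPM in double-sorted green cones, 4.15 and 1.37 CPM in single-sorted green cones, 4.14 and 2.72 CPM in the Nrl-/- libraries, and 1.25 and 1.13 CPM in rods. Elements of Müller glia markers held 6 green-only elements of 62 (9.68%), those of amacrine markers 4 of 30 (13.3%) and of ganglion cell markers 3 of 22 (13.6%). Bipolar markers held 3 of 45 (6.67%), microglia markers 2 of 25 (8%), pigment epithelium markers 2 of 12 (16.7%) and horizontal cell markers 1 of 6 (16.7%). The glial share was near that of the whole table, and the bipolar and microglia shares were below it. The others were above it, on 1 to 4 elements each. Summed over the 62 glial elements the level was 1001.9 and 849.8 CPM in double-sorted green cones, 712.0 and 739.7 CPM in single-sorted green cones, 844.1 and 849.2 CPM in the Nrl-/- libraries, and 516.7 and 534.5 CPM in rods. The sums over elements of amacrine, ganglion, pigment epithelium and horizontal cell markers were likewise highest in double-sorted library 3, with 442.3, 324.9, 308.6 and 144.6 CPM. In double-sorted library 4 they were 398.9, 198.5, 194.9 and 97.9 CPM. Of these, only the amacrine sum of library 4 was above every single-sorted, Nrl-/- and rod library. In the Nrl-/- libraries ganglion sums were 234.3 and 232.4 CPM and horizontal sums 125.4 and 140.7 CPM. Single-sorted library 2 had 202.0 CPM for pigment epithelium. The sums over bipolar and microglia markers were instead highest in a rod library. Bipolar elements summed to 531.7 and 414.1 CPM in double-sorted green cones, 457.8 and 451.5 CPM in single-sorted green cones, 544.4 and 616.5 CPM in the Nrl-/- libraries, and 592.7 and 646.9 CPM in rods. Microglia elements summed to 279.0 and 252.4 CPM in double-sorted green cones, 245.4 and 224.8 CPM in single-sorted green cones, 334.1 and 328.9 CPM in the Nrl-/- libraries, and 317.4 and 346.0 CPM in rods. The part of other cell types in the class was not tested, and a share of other cells cannot be told apart from open chromatin of these genes in cones.

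Of single elements at such markers, one 2.2 kb upstream of Hes1, a Notch target of glia and progenitors, had 41.2 and 19.8 CPM in double-sorted green cones, 19.3 and 13.7 CPM in single-sorted green cones, 8.69 and 4.99 CPM in the Nrl-/- libraries, and 1.25 and 0.565 CPM in rods. The promoter of Rgs4, a regulator of G-protein signalling in neurons, was among the 5 green-only promoters with the most double-sorted signal and the only one of them near 0 in rods, with 54.4 and 35.0 CPM in double-sorted green cones, 21.5 and 16 CPM in single-sorted green cones, 2.07 and 5.45 CPM in the Nrl-/- libraries, and 0 and 0.753 CPM in rods. In single-sorted green cones it was higher than in Nrl-/- photoreceptors by a log2 fold change of 2.2 (SE 0.40, edgeR adjusted p = 0.0302). The call was lost without Nrl-/- library 1 (1.8, adjusted p = 0.263), without single-sorted library 1 (1.97, adjusted p = 0.226) and with DESeq2 (adjusted p = 1). The RNA of Rgs4 was below the filter in Nrl-/- photoreceptors and rods, at 0 to 7.10 normalised counts.

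Some genes gathered many green-only elements. The 4836 had 3366 nearest genes, of which 63 had 5 or more. The largest numbers were at Ntm, a neuronal adhesion protein, with 16 of its 63 elements, and at the zinc finger gene Zfp608, with 15 of 49. All 8 elements nearest to Fam189a1 were green-only, summing to 131.4 and 84.4 CPM in double-sorted green cones, 58.1 and 54.7 CPM in single-sorted green cones, 4.97 and 5.90 CPM in the Nrl-/- libraries, and 1.67 and 1.32 CPM in rods. At Nyap2, a neuronal phosphoprotein, 8 of 9 were, with 87.8 and 60.2 CPM in double-sorted green cones, 47.1 and 36.9 CPM in single-sorted green cones, 9.93 and 12.3 CPM in the Nrl-/- libraries, and 1.87 and 2.26 CPM in rods. Along the chromosomes the next element was another green-only element for 21.0% of them, against 8.56% over all elements, and it was in the rod list for 36.7%, against 56.6%.

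In position the green-only elements were distal. Only 381 (7.88%) were promoters, from 1000 bp upstream to 100 bp downstream of a RefSeq start site, against 13.4% of the Nrl-/- only elements, 12.3% of the elements of both cone lists and 26.6% of all elements. Their median distance to a start site was 28.5 kb, against 14.8 kb, 22.9 kb and 8.43 kb in the same 3 sets. Introns held 50.4% and sites between genes 43.7%. Their median GC share was 50%, against 53.5% over all elements. On the X chromosome lay 1.08% of them, against 1.69% of all elements.

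The sequences differed from the other cone elements in their motifs. The half-site AGGTCA, on either strand, was in 22.5% of the green-only elements, against 12.4% of the Nrl-/- only elements, 15% of those of both cone lists and 14.9% of all elements. It was not particular to green cones, since 23.6% of the rod-only elements and 27.1% of the elements of the rod and double-sorted lists but not the Nrl-/- list held it too. The bZIP motif TGANTCA was in 11.7% of the green-only elements, against 5.32% of the Nrl-/- only elements, 7.84% of those of both cone lists and 6.28% of all elements, and was in 15.3% of the 3495 elements that were in the single-sorted list alone and in 4.93% of rod-only elements. Both motifs were in 148 green-only elements, and 1503 (31.1%) held either, against 20% of all elements.

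Both motifs were more frequent among the green-only elements that the single-sorted list also held. AGGTCA was in 24.6% of these and in 19.5% of the others, and TGANTCA in 14.9% and 7.14%. The rule did not use the single-sorted list, though some elements were placed on its summits. The split by this list also goes with peak strength. Over the 4 parts by −log10 q the share with TGANTCA was 10.8%, 11%, 12.4% and 12.4%, and with AGGTCA 20.9%, 22.3%, 21.3% and 25.4%.

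The counts moved with the motifs too. Green-only elements with TGANTCA had a median log2 fold change of 1.60 for single-sorted green cones over Nrl-/- photoreceptors, with 131 of 486 tested (27.0%) called higher, against 0.92 and 374 of 3488 (10.7%) for those without. With AGGTCA the median was 1.25 and 178 of 924 (19.3%) were called, against 0.92 and 327 of 3050 (10.7%) without. Elements with the SP/KLF motif GGGCGG went the other way, with a median of 0.62 against 1.05 without it. The background over all elements tested was 1.83%. In single-sorted libraries 1 and 2 the elements with TGANTCA had median levels of 5.86 and 9.58 CPM, against 5.37 and 5.7 CPM without it. The difference was thus larger in library 2. The shares called by motif were not recomputed with a library left out.

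Homeodomain motifs also differed between the green-only and Nrl-/- only elements. The CRX-type motif CTAATCC was in 9.84% of the green-only and 6.37% of the Nrl-/- only elements, and its G variant CTAAGCC in 7.36% and 5.01%. CTAATCC was also in 9.15% of the elements of both cone lists, 10.5% of rod-only elements and 7.61% of all elements. With promoters left out it was in 10.4% of the green-only, 7.01% of the Nrl-/- only and 9.54% of all elements. For CTAATCC the Nrl-/- only elements were thus low, and the green-only elements were near the other classes. The Q50 motif TAATTA ran in the opposite direction, in 4.69% of the green-only and 9.13% of the Nrl-/- only elements, with 4.71% over all elements. Motifs of promoters were scarce: GGGCGG was in 11.1% of the green-only elements against 26.8% of all, and the ETS motif CCGGAAGT in 0.310% against 2.25%. The CTCF consensus was in 1.88% of the green-only elements against 3.53% of all, and with promoters left out in 1.98% against 4.53%. With promoters left out, the shares for AGGTCA were 23.6% in green-only, 13.3% in Nrl-/- only and 17.6% in all elements, and for TGANTCA 12.3%, 5.69% and 7.63%, so the order of these classes did not rest on promoters.

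**Figure D4:**
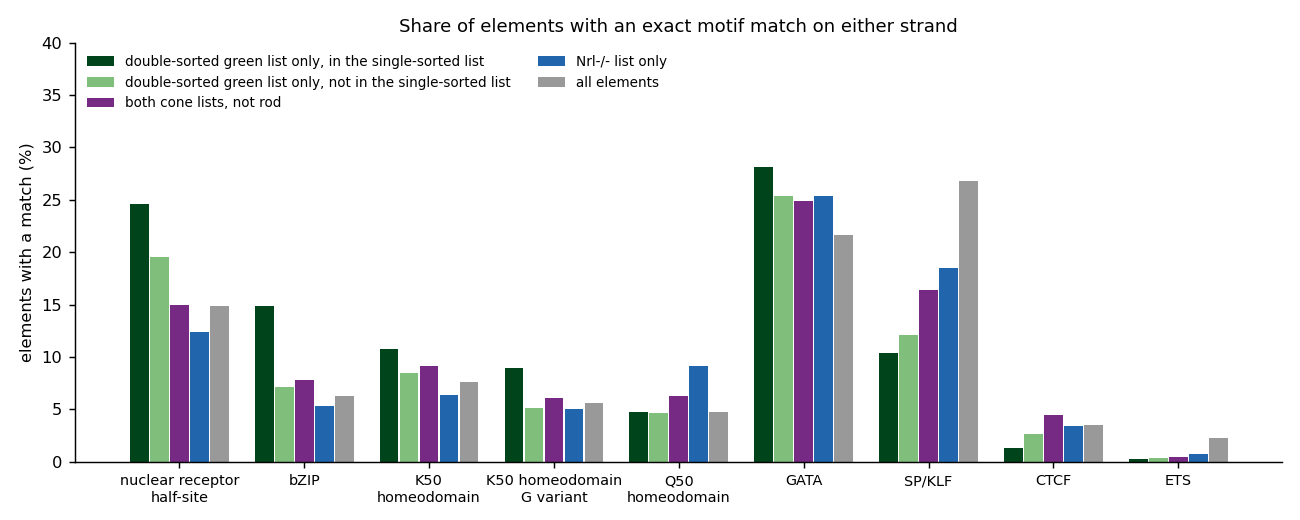
Share of elements (%, y axis) with at least 1 exact match to each of 9 motifs (x axis), in green-only elements split by the single-sorted list and in 3 other sets of elements. The nuclear receptor half-site is in 24.6% and 19.5% of the green-only elements and in 12.4% of the Nrl-/- only elements, and the bZIP motif in 14.9%, 7.14% and 5.32%.

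Where the half-site stood as a direct repeat, a spacing of 4 bases was the most frequent of those searched. A repeat was counted as AGGTCA with a further half-site (AGGNCA, or the form GGGNCA) in the same direction on either strand and in either order, with 0 to 8 bases between them. At 4 bases, the spacing that thyroid hormone receptor with a retinoid X receptor is known to read, 40 green-only elements (0.827%) held one. At the other spacings 7 to 15 did. Among the Nrl-/- only elements 8 held one at 4 bases and 3 to 22 at the others, among elements of both cone lists 25 and 4 to 16, among those in the single-sorted list alone 21 and 1 to 10, and among all elements 147 (0.276%) and 50 to 119. Of the 40, 28 were also in the single-sorted list. The numbers are small, no test was made of them, and a match is not a bound site.

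Of the 40, 6 held AGGTCA in both places, and these were picked out for their letters after the counts of the spacings had been seen. They are shown as 40 bases with the half-sites in capitals, on the strand that reads AGGTCA. They are from chr16:10761385-10761424 (minus strand, 24.2 kb from Socs1), chr1:99970323-99970362 (minus strand, intron of Cntnap5b), chr2:168347223-168347262 (minus strand, near Kcng1, where a further half-site follows at the same spacing), chr2:178796022-178796061 (plus strand, near Gm35888), chr5:33535513-33535552 (minus strand, near Fam53a) and chr8:74930868-74930907 (plus strand, near Isx).
Socs1: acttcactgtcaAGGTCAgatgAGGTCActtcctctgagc
Cntnap5b: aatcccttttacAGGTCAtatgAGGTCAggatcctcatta
Kcng1: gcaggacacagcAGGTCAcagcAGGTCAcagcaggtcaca
Gm35888: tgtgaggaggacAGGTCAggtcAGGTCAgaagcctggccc
Fam53a: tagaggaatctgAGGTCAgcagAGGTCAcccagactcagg
Isx: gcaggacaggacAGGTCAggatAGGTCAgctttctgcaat

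**Figure D5:**
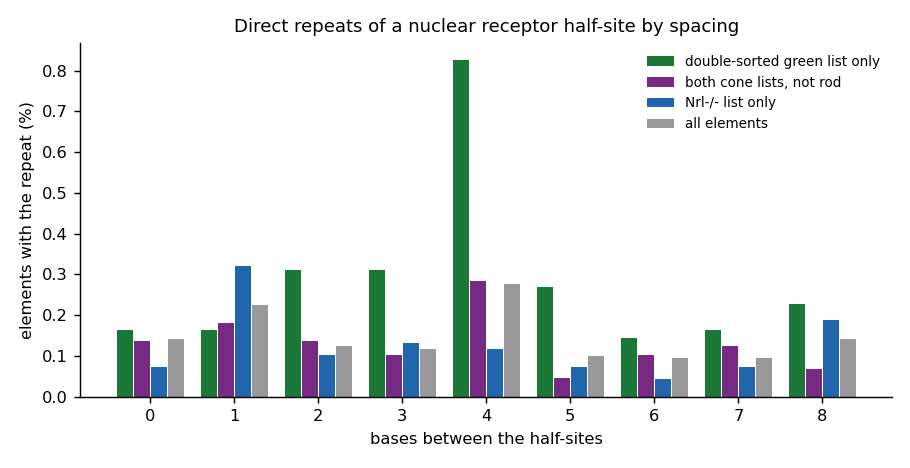
Share of elements (%, y axis) with a direct repeat of the nuclear receptor half-site, by the number of bases between the half-sites (x axis), in 4 sets of elements. At 4 bases the green-only elements reach 0.827%, against 0.276% of all elements.

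The element with the repeat near Kcng1, a potassium channel subunit gene, had 38.9 and 9.88 CPM in double-sorted green cones, 17.1 and 11.4 CPM in single-sorted green cones, 3.31 and 3.18 CPM in the Nrl-/- libraries, and 0.208 and 0.753 CPM in rods. That near Fam53a had 20.2 and 19.8 CPM in double-sorted green cones, 16.1 and 17.3 CPM in single-sorted green cones, 1.66 and 3.18 CPM in the Nrl-/- libraries, and 0 and 1.88 CPM in rods. In all 6 the mean of the single-sorted libraries was above those of the Nrl-/- and rod libraries. This is common in the class. The log2 fold change of single-sorted green cones was above 0 at 88% of green-only elements tested against Nrl-/- photoreceptors. Against rods it was above 0 at 94.8%. The log2 fold change of single-sorted green cones over Nrl-/- photoreceptors passed the test at Fam53a, Socs1, Cntnap5b and Kcng1 (2.67, 2.95, 3.99 and 2.16, edgeR adjusted p = 0.00628, 0.014, 0.0383 and 0.0606). DESeq2 called none of the 4 (adjusted p = 0.376, 0.785, 1 and 1). Without single-sorted library 1 the call was lost at Socs1 (adjusted p = 0.583), Cntnap5b (0.308) and Kcng1 (0.513). It was also lost at Cntnap5b without single-sorted library 2 (0.325) or Nrl-/- library 2 (0.628), and at Kcng1 without Nrl-/- library 1 (0.129) or 2 (0.258).

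RNA-seq addressed whether genes near the green-only elements differ between Nrl-/- photoreceptors and rods, the cells whose RNA was analysed here. Of 3366 nearest genes, 3110 were in the gene table and 1904 passed the filter on low counts. Of these, 380 (20%) were higher in Nrl-/- photoreceptors, against 13.3% of all 12327 genes tested, and 149 (7.83%) lower, against 6.88% (edgeR, tested against a log2 fold change of 1, adjusted p under 0.05). The share of higher genes was 28.1% near elements of both cone lists, 23.1% near Nrl-/- only elements, 13.4% near any element and 6.84% near rod-only elements. Genes near the green-only elements thus lay between, with a median log2 fold change of 0.10 against −0.01 over all genes. A gene can be near elements of several classes, so that these sets share genes.

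Genes with 2 or more green-only elements had a larger share of higher calls, 132 of 484 (27.3%), and 35 (7.23%) were lower. Of 210 genes near elements called in single-sorted green cones against Nrl-/- photoreceptors, 53 (25.2%) were higher and 19 (9.05%) lower. Genes with 2 or more elements of other classes were not counted for comparison. Where the green-only element was the promoter, 57 of 268 genes (21.3%) were higher and 15 (5.60%) lower.

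The genes that rose most in Nrl-/- photoreceptors included Rxrg, the retinoid receptor of cones, with 4842.5, 5105.3 and 4812.0 normalised counts in Nrl-/- photoreceptors, against 16.1, 18.9 and 26.4 in rods (log2 fold change 7.93, SE 0.18, edgeR adjusted p = 4.33e-11). Wwc1 (KIBRA, of the Hippo pathway), with 3 green-only elements, had 6329.1, 6482.7 and 6510.7 normalised counts in Nrl-/- photoreceptors, against 18.3, 39.0 and 20.1 in rods. Tc2n and Ebf2, an early B-cell factor gene, had 213.2 ± 41.1 and 147.8 ± 11.7 normalised counts in Nrl-/- photoreceptors (SD, n = 3) and none in rods. The groups did not overlap at any of these genes, which were picked for the size of their change.

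The genes that fell most were St8sia1, a sialyltransferase, with 25.3, 16.6 and 26.8 normalised counts in Nrl-/- photoreceptors, against 2414.7, 2788.4 and 2712.1 in rods, Aqp1, Epas1, Bst1 and Selenbp1. Epas1, which encodes the hypoxia factor HIF-2 alpha, had 22.7, 69.1 and 28.4 normalised counts in Nrl-/- photoreceptors, against 4045.1, 3905.2 and 4193.3 in rods (log2 fold change −6.64, SE 0.30, edgeR adjusted p = 5.89e-09). A green-only element was therefore found near genes whose RNA was far higher in rods as well as near genes whose RNA was far lower.

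The genes with the most green-only elements show the same mix. Zfp608 had 643.1, 514.2 and 535.9 normalised counts in Nrl-/- photoreceptors, against 1.15, 5.92 and 16.3 in rods (log2 fold change 6.22, SE 0.40, edgeR adjusted p = 2.35e-07). Grip1, a scaffold protein of synapses with 9 green-only elements of 18, had 41.8, 43.7 and 68.6 normalised counts in Nrl-/- photoreceptors, against 635.2, 495.7 and 472.8 in rods (log2 fold change −3.35, SE 0.23, edgeR adjusted p = 1.24e-06). Ntm did not pass the test (0.63, SE 0.15, edgeR adjusted p = 1), and the RNA of Anks1b and Gm15413 was below the filter.

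Among genes of the lists with a green-only element, Sall3, of the photoreceptor factors, rose in Nrl-/- photoreceptors (1874.4, 1581.1 and 1431.2 normalised counts, against 20.6, 7.10 and 8.80 in rods), as did Nr2f2 (1049.2, 1030.2 and 948.0, against 412.8, 378.6 and 344.5 in rods), of the dorsoventral genes, the bipolar markers Scgn and Irx6, the ganglion cell marker Isl2, the immediate early gene Egr3 and Sox11 (edgeR adjusted p = 1.63e-09 for Sall3, 0.00414 for Nr2f2 and 6.37e-05 to 0.00428 for the others). Rora and Rgs9 did not pass the test, with log2 fold changes of 0.32 and −0.80. Of 18 cone phototransduction genes tested, 11 were higher and 4 lower in Nrl-/- photoreceptors, and of 11 rod genes 10 were lower. Of 5 vascular markers tested 1, Pecam1, was lower, and of 8 microglia markers tested 5 were higher, so the Nrl-/- RNA libraries carried more RNA of some microglia markers, whose part in the counts of nearest genes was not tested.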

How the data were processed

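ATAC-seq was measured in 8 libraries and RNA-seq in 6. The authors aligned ATAC-seq reads with Bowtie2 2.2.3, kept inserts of up to 100 bp, called peaks with MACS2 2.1.0 and filtered them for reproducibility between the replicates of a group (IDR 0.01), and deposited raw read counts per 200 bp element; 65.7% to 84.2% of the counts above 0 were even, as both mates were counted. The deposited peak lists hold a score, a fold enrichment (ratio), the −log10 q and the summit offset in bp, as the authors' caller wrote them. RNA counts per RefSeq gene came from STAR 2.4.2a and HTSeq 0.6.1p1, per the labels and methods of the authors. Rows for reads assigned to no gene, 41.3% to 49.2% of a library, were left out. ATAC-seq totals were 1062403 to 5770075 counts and RNA totals 18376770 to 26312895.

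Elements were classed by overlap with summit windows and annotated with RefSeq on GRCm38, promoters running from 1000 bp upstream to 100 bp downstream of a start site. Pairs of groups were fitted in edgeR 4.0.16 (R 4.3.3, TMM scaling, filterByExpr, quasi-likelihood test against a log2 fold change of 1) over the whole table, and DESeq2 1.42.0 was an alternative. The scripts were tested on simulated data. Motifs were exact matches of 18 patterns on both strands. A level listed at 0 allows up to 3 fragments, taken as 6 counts, and this and the Wilson interval cover counting error only. Elements were named by rule: the 10 with the largest single-sorted ratio to the larger of the Nrl-/- and rod means where all green libraries were above the rest and the single-sorted mean was 2 CPM or more, the 5 with the largest −log10 q, the 5 promoters with the most double-sorted signal, up to 3 for each of 15 gene lists, up to 10 called in double-sorted green cones against Nrl-/- photoreceptors, and 3 on each side of the limits of the rule. Nearest genes of these were named in RNA, with the 5 largest changes in each direction, and the genes with the most members and those with exact direct repeats were added after values were seen. The members and lists were chosen with earlier results of these data known. Other scaling, no filter, the replicate number as a block, other overlaps and leaving out each library were tried.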

Additional observations from a re-analysis of the deposited data

How the results depend on the processing

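The count of green-only elements called in double-sorted green cones against Nrl-/- photoreceptors was the least stable, with 12 as reported, 21 with DESeq2, 83 with RLE size factors, 91 without a filter on low counts and 52 to 936 with 1 library left out. Against rods the double-sorted count of 2568 was 1492 with DESeq2 and 1134 to 2218 with 1 library left out. The single-sorted counts were 505 against Nrl-/- photoreceptors (67 with DESeq2, 236 to 442 with 1 library left out) and 2733 against rods (1719 to 2745). The counts of nearest genes higher and lower in Nrl-/- RNA stayed within 1.5 times under each alternative, at 355 to 393 and 134 to 172 with 1 library left out. With DESeq2 the single-sorted count against rods was 1840. The cause of these shifts was not tested.

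With the replicate block the single-sorted counts were 2588 against rods and 508 against Nrl-/- photoreceptors, and the RNA counts 383 and 150. Same-numbered libraries deviated together with correlations of 0.01 to 0.03 in ATAC-seq and 0.03 to 0.10 in RNA, so the numbers do not pair them, and double-sorted libraries share no number with another group.

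The share of green-only elements in the single-sorted list, 58.3%, was 60.6% with rod and Nrl-/- windows of 250 bp on either side, 64.0% with whole peak intervals and 62.9% with double-sorted peaks of −log10 q of 10 or more. The share with a direct repeat at 4 bases was 0.124% when both half-sites had to be AGGTCA, chosen after seeing the data. That is 1 of 1476 alternative values behind 176 results for single elements and genes and this share, of which 1405 kept direction and side of the threshold, 53 lost the call and 17 changed sign, none of them called as reported. With 1 library left out, the log2 fold change of single-sorted green cones over Nrl-/- photoreceptors ran from −0.30 to 0.10 at Apaf1, −0.18 to 0.64 at Rgs9, −0.02 to 1.73 at Bcl11b, −0.25 to 0.80 at Dio2, −0.10 to 0.07 at Mier3 and −0.41 to 0.45 at the Rora intron element, and passed 0 within the range. Over rods it ran from −0.05 to 0.15 at Mier3, −0.85 to 0.03 at Hspd1, −0.42 to 1.12 at Foxp1 and −0.03 to 0.67 at Eomes, and in RNA from −0.14 to 0.07 for Ercc4, −0.43 to 0.25 for Kdr and −0.23 to 0.00 for Mier3. The double-sorted values rest on 12 and 8 counts at the median green-only element.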
